A study of Macaca mulatta with 8 samples.

Results

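The NMDA receptor is a glutamate-gated cation channel built from subunits of the GRIN gene family, and 6 of its 7 genes, GRIN1, GRIN2A, GRIN2B, GRIN2C, GRIN2D and GRIN3A, were followed here across the cell classes of the infant macaque brain. They were taken by gene symbol, are 6 of the 21748 genes in the count matrix, and hold 882890 unique molecular identifiers (UMIs), 0.267% of the 331133661 UMIs in all. GRIN3B, the seventh gene, had 0 UMIs in all nuclei and is not described further.

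As background, every NMDA receptor needs the GRIN1 subunit, which binds the co-agonist glycine or D-serine. The GRIN2 subunits bind glutamate and set how long the channel stays open and where it is anchored, while GRIN3 subunits, which also bind glycine, lower calcium entry. In rodents GRIN2B and GRIN2D are expressed early, GRIN2A is added after birth so that the GRIN2B to GRIN2A balance shifts as neurons mature, GRIN2C is found in cerebellar granule cells and astrocytes, and GRIN2D is high in forebrain interneurons. The opening of the channel needs both glutamate and release of the magnesium block by depolarisation, and the calcium that enters acts on kinases held in the postsynaptic scaffold.

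Nuclei of frozen brain tissue from male rhesus macaques were sequenced by droplet 3′ RNA sequencing, which counts RNA molecules by UMI. The sevoflurane group was 1 animal, exposed to the anaesthetic gas sevoflurane at about 2.5 to 3% for 4 h on each of 3 occasions (about postnatal day 7, then days 14 and 28, as ages or as intervals). The control group was a pool of 2 animals, the tissue of each group was divided into 4 samples, and the labels give the tissue as hippocampus in 1 field and as amygdala in another. The matrix holds 8 libraries numbered by barcode suffix, none of which is tied to a sample. Libraries thus carry no group, sevoflurane was not compared with control, and the whole matrix counts as 1 sample.

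Of 59749 barcodes, 54644 nuclei were kept (5015 to 8931 per library, with 35806547 to 47007082 UMIs and a median of 3189 to 5831 UMIs per nucleus), and 358 of their barcode sequences occur in more than 1 library. They fell into 47 clusters, of which 45 were named for 19 classes by marker genes, and each name means "like" that type: 28496 neurons (19368 excitatory, 6963 inhibitory, 2165 immature) and 24321 non-neuronal nuclei. The 6 subunits and their partner genes were left out of the clustering. Most excitatory and astrocyte clusters, and the immature cluster, came almost wholly from libraries 1 to 4 or from libraries 5 to 8, whereas the interneuron clusters were drawn from all 8, so class values are given with their range over libraries. Among excitatory clusters, 3 had markers of another type among their 10 leading genes: SV2C, an interneuron marker, in cluster 12, F13A1, a macrophage marker, in cluster 29, and ERG, ST18 and MEGF11 in cluster 34. PROX1, a marker of granule neurons and of VIP interneurons, was among the leading genes of the immature cluster.

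Levels are UMIs per 1000000 UMIs of the summed class (CPM), with exact 95% intervals that cover counting error only. UMI capture differs between genes, so levels are compared between classes and not between subunits. In place of a test, a gene is called higher or lower where the classes differ at least 2-fold, the higher class reaches 10 CPM, and all libraries that hold 50 or more nuclei of each class go the same way. The share of all measured genes that the rule calls in a comparison is given as its background. A sum over nuclei cannot tell fewer expressing nuclei from less RNA in each.

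**Figure D1:**
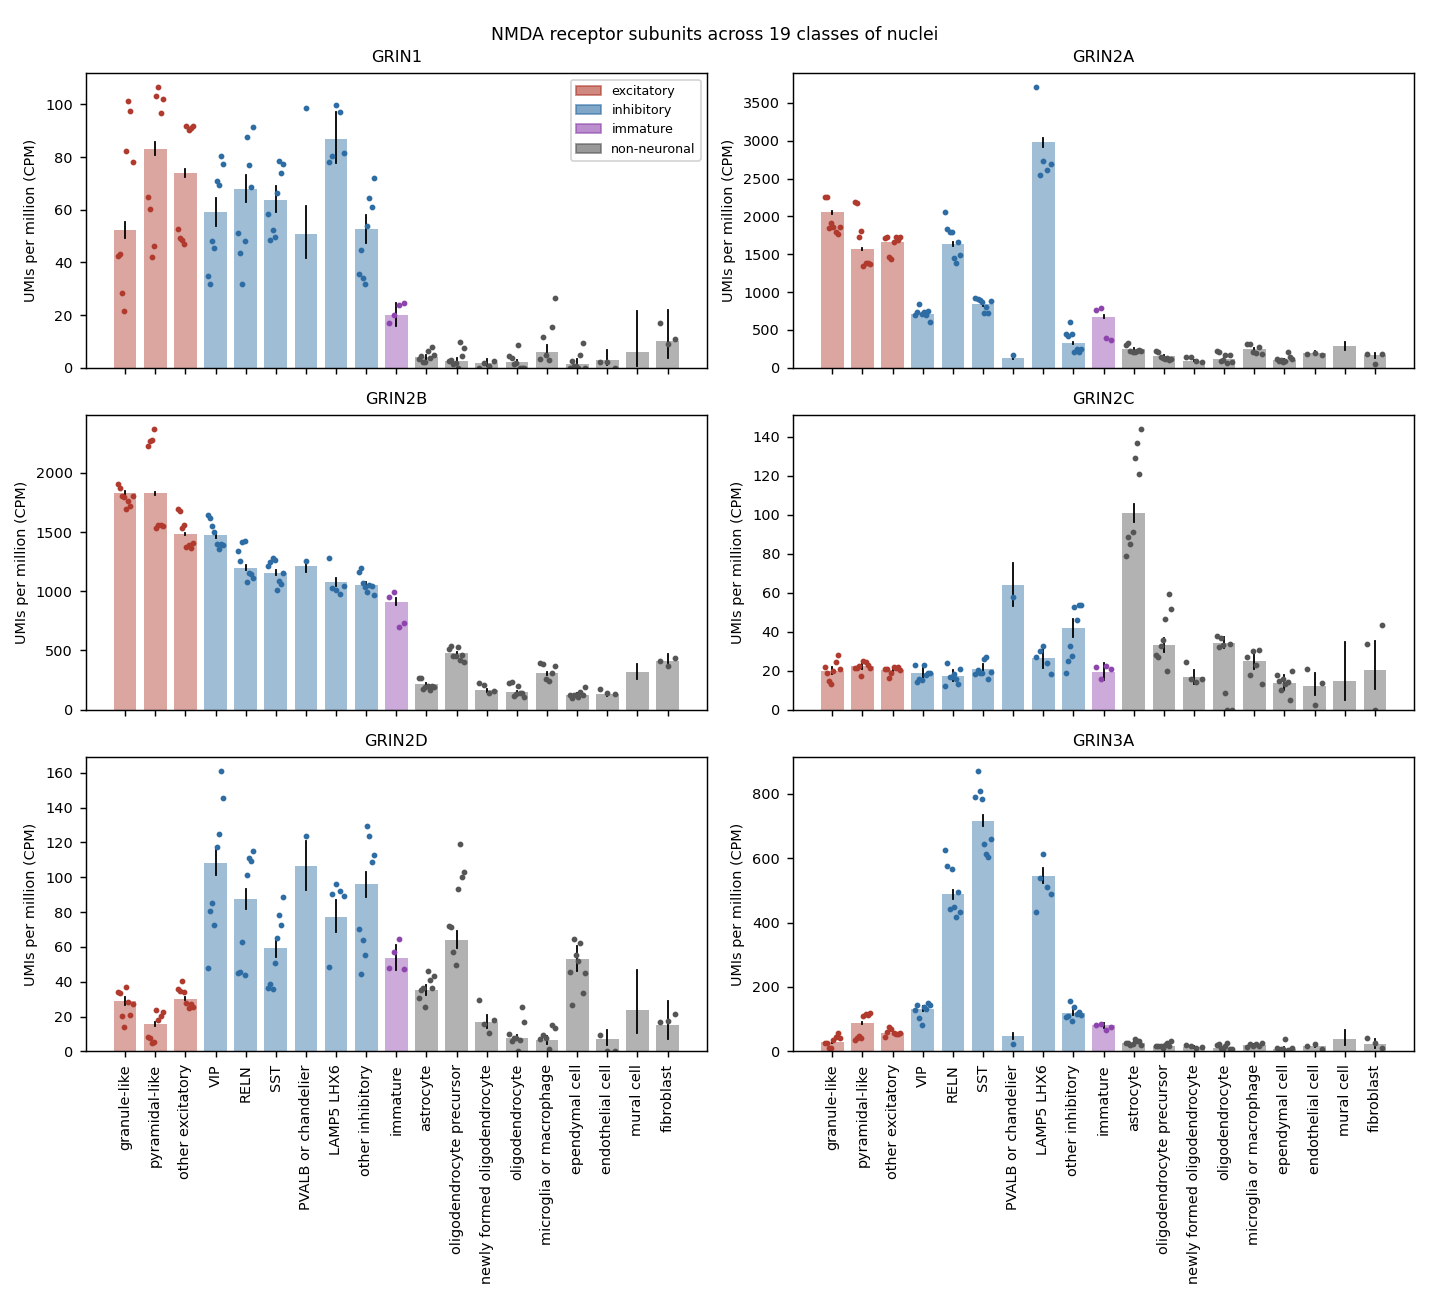
Level of each subunit in 19 classes, in CPM. Bars are class sums, black lines exact 95% intervals and points the libraries with at least 50 nuclei of the class; "other inhibitory" is a cluster with LHX6 among its leading genes and no subclass name. GRIN1 is at most 10.1 CPM in non-neuronal classes, GRIN2C is highest in astrocytes at 101 CPM, and GRIN3A is highest in SST interneurons at 716 CPM.

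Between neurons and non-neuronal nuclei, 4 of the 6 subunits were higher in neurons (background 11.7% of 10406 genes) and 1, GRIN2C, was lower (background 19.0%). GRIN1, the obligatory subunit, stood at 70.8 CPM (95% interval 69.7 to 71.9) in neurons and 3.05 CPM (95% interval 2.64 to 3.51) in non-neuronal nuclei, a 23.2-fold (95% interval 20.2 to 26.9) difference. The 8 libraries ran from 43.2 to 91.6 CPM in neurons and from 1.66 to 8.5 CPM in non-neuronal nuclei, with no overlap. GRIN2A reached 1550.0 CPM in neurons against 175 CPM in non-neuronal nuclei, 8.83-fold (95% interval 8.67 to 9.0) higher. GRIN2B reached 1529.9 against 235 CPM, 6.52-fold (95% interval 6.42 to 6.63) higher, and GRIN3A 124 against 17.8 CPM, 6.97-fold (95% interval 6.57 to 7.4) higher. These calls had the same direction in all 8 libraries. Over all genes 1221 were higher and 1975 lower in neurons, and with TMM scaling 1548 and 1560.

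Free RNA from broken neurons can give UMIs in droplets of other cells, and the subunits differed in how much of their neuronal level non-neuronal nuclei showed. Against the neuronal level, non-neuronal nuclei held 4.31% for GRIN1, 11.3% for GRIN2A, 15.3% for GRIN2B and 14.3% for GRIN3A. For the subunits not called higher in neurons, the share was 227% for GRIN2C and 74.8% for GRIN2D. For the 10 excitatory and inhibitory neuron markers that reached 10 CPM in neurons, the same share had a median of 28% and ran from 12.9% for SV2B to 102% for NEUROD6. The shares differed from gene to gene among the markers as among the subunits. Those of GRIN1, GRIN2A, GRIN2B and GRIN3A lay below the marker median, and those of GRIN2C and GRIN2D above it. The former are the subunits called higher in neurons, and the call itself limits their share. The part of free RNA in the subunit values was not tested further than by taking off 5% of the pooled profile, which kept these calls. In nuclei thinned to 2000 UMIs, a GRIN1 UMI was found in 13.2% of neurons and 0.574% of non-neuronal nuclei (38.4% and 0.806% without thinning, at median depths of 7400 and 2328 UMIs), with 1574 neurons and 9003 non-neuronal nuclei too shallow to use.

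Among the 6 inhibitory groups, GRIN1 spanned a 1.71-fold range, and no mature class reached 100 CPM. It stood at 73.8 CPM (95% interval 72.5 to 75) in excitatory neurons and 63.4 CPM (95% interval 61 to 65.8) in inhibitory neurons, a ratio of 1.16 that was above 1 in 6 of 8 libraries. In order of level the neuronal groups ran from LAMP5 LHX6 interneurons (87 CPM) and pyramidal-like neurons (83.2) through RELN (68), SST (63.8) and VIP interneurons (59.1) to granule-like neurons (52.1) and, last, immature neurons (19.9). Of the 18 neighbouring pairs in the order of all classes, 14 had at least 2 libraries in each class. All 14 had overlapping library ranges for GRIN1, so the ranges do not separate these steps. The ranges do not pair classes by library, and granule-like neurons lay below pyramidal-like neurons in 7 of 8 libraries.

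GRIN2A and GRIN2B, the main glutamate-binding subunits of the forebrain, were both higher in excitatory neurons, by less than the 2-fold rule. In excitatory against inhibitory neurons, GRIN2A stood at 1682 CPM (95% interval 1676 to 1688) and 1072 CPM (95% interval 1062 to 1082), a ratio of 1.57, and GRIN2B at 1619.8 CPM (95% interval 1614 to 1626) and 1208 CPM (95% interval 1197 to 1218), a ratio of 1.34. Both ratios were above 1 in 8 of 8 libraries. The excitatory to inhibitory comparison called 2 of the 6 subunits, both lower in excitatory neurons (GRIN2D and GRIN3A, background 6.41% of 9466 genes), and 0 higher (background 6.18%).

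Among the 6 inhibitory groups, GRIN2A spanned a 22.7-fold range and GRIN2B a 1.4-fold range. Of the 2763 genes that reach 100 CPM in at least 1 of these groups and have UMIs in all 6, 2.46% had a wider range than GRIN2A and 63.7% a wider range than GRIN2B. Genes without a UMI in some group, whose range has no upper limit, were left out. GRIN2A was highest in LAMP5 LHX6 interneurons at 2979 CPM (95% interval 2923 to 3035), where 5 libraries ran from 2546 to 3706 CPM. It followed in RELN interneurons at 1633 CPM (1386 to 2058 CPM over 8 libraries), SST interneurons at 837 (718 to 926 CPM) and VIP interneurons at 716 (603 to 837 CPM). The LHX6 cluster without a subclass name had 322 CPM (205 to 606 CPM), and PVALB or chandelier interneurons had 131 CPM (95% interval 116 to 148), below the 254 CPM of astrocytes. The LAMP5 LHX6 range lay above that of every other class with at least 2 libraries. The RELN range lay above those of SST and VIP, which overlapped each other.

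Over all neuronal groups GRIN2B ran from granule-like (1831 CPM), pyramidal-like (1827) and the remaining excitatory neurons (1484) through the inhibitory groups to immature neurons (912). Of the 14 neighbouring pairs of classes that could be compared, only immature neurons and the class after them, oligodendrocyte precursors (476), had library ranges apart. Among inhibitory groups it stayed between 1054 CPM in the unnamed LHX6 cluster and 1474 CPM in VIP interneurons. PVALB or chandelier interneurons, lowest for GRIN2A, had 1209.6 CPM (95% interval 1163 to 1257) of GRIN2B, against 1208 CPM in all other inhibitory neurons, a ratio of 1.0. Thinned to 2000 UMIs, 19.9% of PVALB or chandelier nuclei held a GRIN2A UMI and 87.7% a GRIN2B UMI. For LAMP5 LHX6 nuclei the shares were 96.9% and 85.6%, and for astrocytes 34.8% and 31.4%. Without thinning they were 47.1% and 99.3% for PVALB or chandelier nuclei, 99.2% and 97.9% for LAMP5 LHX6 nuclei, and 37.0% and 35.8% for astrocytes, at median depths of 6787, 5669 and 2117.5 UMIs.

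**Figure D2:**
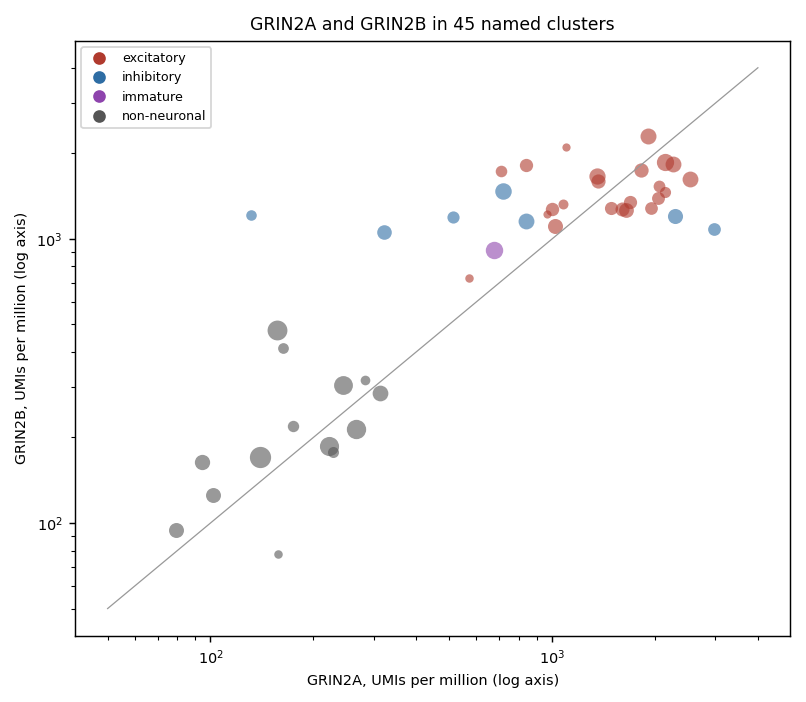
GRIN2B against GRIN2A level in the 45 named clusters, in CPM on log axes, with point area growing with the number of nuclei and the grey line marking equal levels. Inhibitory clusters spread along the GRIN2A axis, from 131 to 2979 CPM, at GRIN2B levels of 1054 to 1474 CPM.

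Each interneuron subclass was set against all other inhibitory neurons. LAMP5 LHX6 interneurons were 3.35-fold (95% interval 3.28 to 3.43) higher in GRIN2A, with 1 of 6 subunits called (backgrounds 2.69% higher and 4.19% lower) and log2 ratios of 1.59 to 1.91 in 5 libraries. PVALB or chandelier interneurons (295 nuclei) were 8.55-fold lower (95% interval 7.6 to 9.65) in GRIN2A, 8.7-fold lower (95% interval 7.15 to 10.7) in GRIN3A and 2.68-fold (95% interval 2.22 to 3.21) higher in GRIN2C. These 3 calls (background 6.77% lower and 3.46% higher) rest on the direction in 1 library, library 8, the only 1 with 50 such nuclei, and without it no call can be made, while the log2 ratios are -3.19 for GRIN2A, -2.99 for GRIN3A and 1.47 for GRIN2C. RELN interneurons had none of the 6 subunits called (backgrounds 2.06% higher and 3.13% lower), and GRIN2A came nearest at 1.84-fold (95% interval 1.8 to 1.87), above 1 in 8 of 8 libraries. With clusters drawn at Leiden resolution 0.5 the RELN class gave 2 calls, GRIN2A at a log2 ratio of 1.44 and GRIN3A at 1.18, and at resolution 2.0 it gave 1, GRIN2A at 1.24. The class is redrawn at these resolutions, so the backgrounds above are not those of these counts.

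The RELN class joins clusters that differ in these genes. Cluster 16 (RELN, HS3ST5 and ADARB2 among its leading genes) had 2291 CPM of GRIN2A and 742 CPM of GRIN3A. Cluster 32 (CNR1, FREM2 and RELN) had 512 and 55.8 CPM, while GRIN2B stood at 1205 and 1194 CPM. These cluster values are a description, since the clusters were drawn from the same nuclei.

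GRIN2C was higher in astrocytes. It stood at 101 CPM (95% interval 96.4 to 105) in astrocytes and 28 CPM in all other non-neuronal nuclei, 3.6-fold (95% interval 3.35 to 3.87) higher in astrocytes, and it was the only 1 of 5 measured subunits called there (background 8.57% of 10311 genes higher). Astrocytes had a lowest library of 78.7, a median of 106 and a highest of 144 CPM, and the log2 ratios were 1.43 to 3.17 over 8 libraries. Libraries 1 to 8 gave 78.7, 88.7, 85.2, 91.3, 129, 137, 121 and 144 CPM, each of libraries 5 to 8 above each of libraries 1 to 4. Most astrocytes of these sets of libraries came from different clusters: cluster 3 for libraries 5 to 8 (135 CPM), and clusters 2, 14 and 35 for libraries 1 to 4 (99, 54.2 and 56 CPM). Cluster 14 and cluster 35 had GFAP among their leading genes.

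In neurons GRIN2C stood at 21.8 CPM against 49.6 CPM in non-neuronal nuclei, 2.27-fold lower (95% interval 2.17 to 2.38), and lower in 8 of 8 libraries. That call is lost with TMM scaling (log2 ratio -0.95) and with Leiden resolution 0.5 (-0.90), against -1.19 as reported. Among neurons it was highest in PVALB or chandelier interneurons at 63.7 CPM (95% interval 53.4 to 75.4) and in the unnamed LHX6 cluster at 41.7 CPM (95% interval 37.1 to 46.6), and the other neuronal groups lay between 17.4 and 26.4 CPM. Astrocytes carried 3.92 CPM of GRIN1. GRIN2A and GRIN2B stood at 254 and 217 CPM there, with ratios to other non-neuronal nuclei of 1.79 and 0.894. With 5% free RNA taken off, GRIN2A and GRIN3A were also called higher in astrocytes (log2 ratios 1.26 and 1.28), and GRIN3A likewise without library 2 (1.04).

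Across the 3 stages of the oligodendrocyte lineage, GRIN2B stood at 476 CPM in precursors, 163 CPM in newly formed oligodendrocytes and 148 CPM in oligodendrocytes, and GRIN2D at 64.2, 17 and 7.97 CPM. Oligodendrocytes were 3.21-fold lower (95% interval 3.06 to 3.36) in GRIN2B and 8.06-fold lower (95% interval 6.73 to 9.7) in GRIN2D than precursors, 2 of 5 measured subunits (backgrounds 13.1% of 9576 genes lower and 7.98% higher). GRIN2B ran from 108 to 231 CPM in oligodendrocytes and from 405 to 538 CPM in precursors, with no overlap over 8 libraries. GRIN2A stood at 122 CPM in oligodendrocytes and 157 CPM in precursors, and was lower in 6 of 8 libraries. Precursors held 31.1% of the neuronal GRIN2B level, 169.7% of the GRIN2D level and 3.49% of the GRIN1 level, beside a median of 31.9% for the 10 neuron markers. A GRIN2B UMI was found in 58.5% of precursors thinned to 2000 UMIs and in 24.7% of oligodendrocytes (66.1% of precursors and 35.1% of oligodendrocytes without thinning).

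GRIN2D, which gives slow channels with weak magnesium block, was lower in excitatory than in inhibitory neurons. It stood at 26.2 CPM (95% interval 25.4 to 26.9) in excitatory neurons and 86.2 CPM (95% interval 83.4 to 89) in inhibitory neurons, 3.29-fold lower (95% interval 3.15 to 3.44). Excitatory neurons had a lowest library of 22.1, a median of 25.5 and a highest of 31.5 CPM, and inhibitory neurons had a lowest library of 49.4, a median of 79.5 and a highest of 112 CPM. The ranges did not overlap, and the log2 ratios ran over -2.24 to -0.65. The inhibitory level itself was 49.4, 54.2, 56.7, 53.9, 102, 109, 110.2 and 112 CPM in libraries 1 to 8, and the excitatory level 31.5, 30.6, 26.5, 22.1, 27.2, 23.1, 24.6 and 24.6 CPM. Between neurons and non-neuronal nuclei GRIN2D met no call, at 37.8 against 28.3 CPM and with 5 libraries above 1 and 3 below.

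The GRIN2D order ran from VIP interneurons (108 CPM), PVALB or chandelier interneurons (106), the unnamed LHX6 cluster (95.9) and RELN interneurons (87.5) to granule-like (28.7) and pyramidal-like neurons (15.7), and all 14 neighbouring pairs with at least 2 libraries each overlapped. SST interneurons had 59.1 CPM (95% interval 54.5 to 64), below the other inhibitory neurons in 8 of 8 libraries at a ratio of 0.623. Granule-like neurons were above pyramidal-like neurons in 8 of 8 libraries at 1.83-fold (95% interval 1.64 to 2.03), short of the 2-fold rule. Within pyramidal-like neurons cluster 9, led by FIBCD1 and drawn from libraries 1 to 4, had 6.25 CPM, the lowest of the 31 neuronal clusters. Cluster 8, of libraries 5 to 8, had 21.9 CPM. Cluster 29, an excitatory cluster led by RORB and FOXP2, had 85.2 CPM, the highest of the 23 excitatory clusters. Outside neurons, GRIN2D reached 52.9 CPM (95% interval 46 to 60.6) in ependymal nuclei, where GRIN1 had 6 UMIs in all.

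GRIN3A, the subunit that lowers calcium entry, had the widest range of the subunits over the 10 neuronal groups, 25.4-fold. Of the 3338 genes at 100 CPM in at least 1 group and with UMIs in all 10, 6.35% spanned more. Excitatory neurons had 62.8 CPM (95% interval 61.7 to 64) and inhibitory neurons 392 CPM (95% interval 386 to 398), 6.24-fold lower (95% interval 6.1 to 6.4) in excitatory neurons. The libraries ran from 38.7 to 75.9 CPM in excitatory and from 351 to 461 CPM in inhibitory neurons. SST interneurons had 716 CPM (95% interval 699.6 to 733), with 8 libraries from 603 to 871 CPM, and were 2.49-fold (95% interval 2.41 to 2.56) higher than other inhibitory neurons (backgrounds 2.55% higher and 4.60% lower). GRIN3A was itself among the leading genes of the SST cluster, although the clustering did not use it. LAMP5 LHX6 interneurons followed at 545 CPM and RELN interneurons at 488 CPM. VIP interneurons had 133 CPM (95% interval 125 to 141), with 8 libraries from 81.1 to 150.1 CPM, and were 3.44-fold lower (95% interval 3.23 to 3.66) than other inhibitory neurons and lower in 8 of 8 libraries (background 3.77% lower). RELN and VIP, neighbours in this order, had library ranges that did not overlap. Thinned to 2000 UMIs, a GRIN3A UMI was found in 60.4% of SST nuclei, 17.6% of VIP nuclei and 4.7% of astrocytes, and in 79.1%, 27.1% and 5.36% of them without thinning.

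Among excitatory neurons, granule-like neurons had 28.2 CPM (95% interval 26 to 30.5) of GRIN3A and pyramidal-like neurons 87.8 CPM (95% interval 85.2 to 90.5), 3.12-fold lower (95% interval 2.86 to 3.4) in granule-like neurons. It was the 1 subunit of 6 called in this comparison (backgrounds 5.70% of 9275 genes lower and 5.18% higher), with log2 ratios of -2.19 to -0.45 over 8 libraries. Libraries 1 to 8 gave 25, 27.3, 10.5, 12.1, 35.5, 43.7, 58 and 43 CPM in granule-like neurons and 34.2, 42.9, 48, 41.3, 111, 116, 112 and 118 CPM in pyramidal-like neurons, and in each library the pyramidal-like value was the higher. Excitatory clusters spanned 4.87 CPM (cluster 29, led by RORB and FOXP2) to 467 CPM (cluster 45, 108 nuclei, with NTS, TOX and NR4A2 among its leading genes). GRIN2A stood at 2055 CPM in granule-like and 1568 CPM in pyramidal-like neurons, higher in 8 of 8 libraries at a ratio of 1.31, and GRIN2B at 1831 and 1827 CPM, a ratio of 1.0 with 4 libraries on each side.

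**Figure D3:**
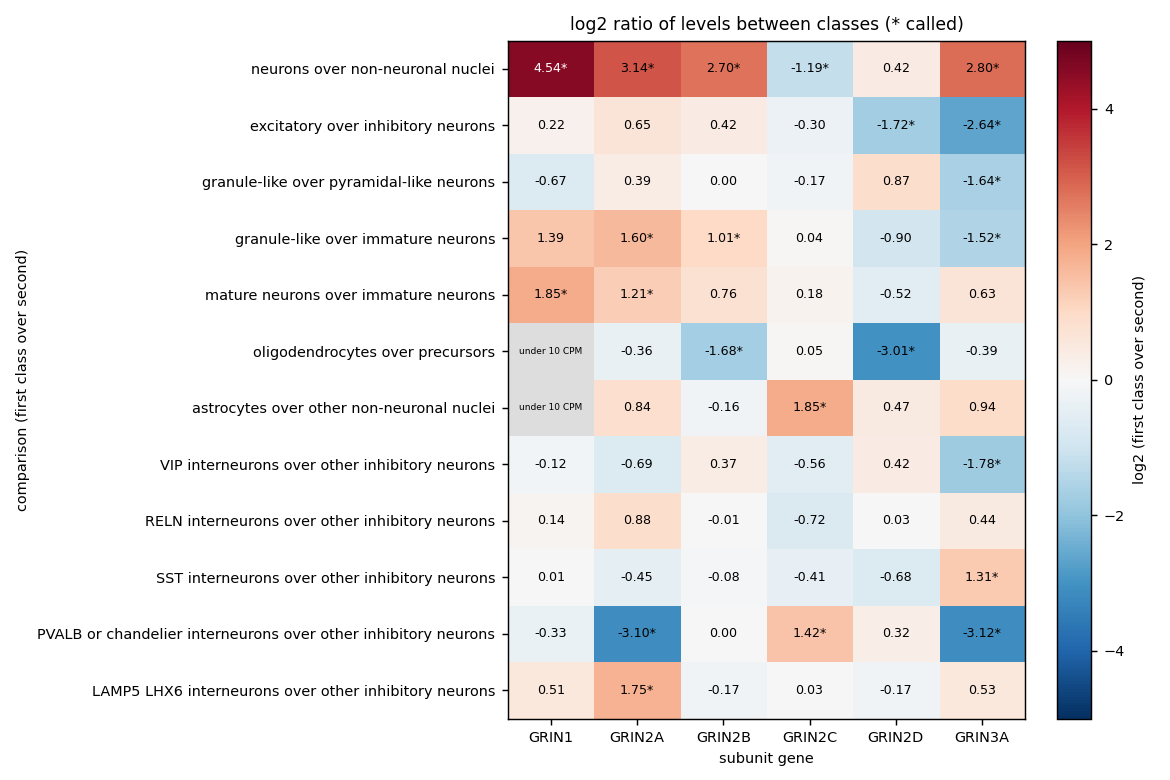
log2 ratio of each subunit's level in 12 comparisons, first class over second. A star marks a call (2-fold, 10 CPM and the same direction in every library with 50 nuclei in both classes), and grey cells are under 10 CPM in both classes. GRIN2B differs less than GRIN2A between interneuron subclasses, and GRIN3A is called in 7 of the 12 comparisons.

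Neurons with immature markers (DCX, SOX11, SOX4 and others) had less GRIN1 and GRIN2A than mature neurons, the excitatory and inhibitory classes together. Mature neurons had 71.8 CPM of GRIN1 and immature neurons 19.9 CPM, 3.6-fold (95% interval 2.92 to 4.5) higher in mature neurons. GRIN2A stood at 1567 CPM in mature and 677 CPM in immature neurons, 2.32-fold (95% interval 2.23 to 2.4) higher. These were 2 of 6 subunits called (backgrounds 9.65% of 10111 genes higher and 15.8% lower), and both were higher in all 4 libraries with 50 immature nuclei, libraries 1 to 4. Over all genes 976 were higher and 1594 lower, and with TMM scaling 1408 and 964. Over these 4 libraries alone the GRIN1 log2 ratio was 1.24 instead of 1.85, and the GRIN1 level of excitatory neurons in libraries 1 to 8 was 51.8, 49.3, 43.9, 43.5, 95, 95.6, 93.1 and 94.2 CPM. The GRIN2A log2 ratio was 1.31 instead of 1.21. GRIN2B stood at 1542 CPM in mature and 912 CPM in immature neurons, 1.69-fold (95% interval 1.64 to 1.75), above 1 in 4 of 4 libraries. Among the other settings it passed 2-fold only with TMM scaling or with libraries weighted equally (log2 ratios 1.05 and 1.04). The mature value includes libraries 5 to 8, which had too few immature nuclei to compare. Within libraries 1 to 4 the GRIN2B ratio ran from 1.74-fold to 2.46-fold, with a median log2 ratio of 1.07. Each of these libraries thus lay above the value over all libraries, and the missing call does not place GRIN2B clearly under 2-fold.

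Against immature neurons, granule-like neurons had 2 of 6 subunits higher (background 8.05% of 10040 genes) and 1 lower (background 16.6%). Over all genes 808 were higher and 1668 lower, and with TMM scaling 1243 and 1023. The granule-like class joins cluster 6, almost wholly of libraries 1 to 4, and cluster 22, almost wholly of libraries 5 to 8. PROX1 was among the leading genes of cluster 6, whereas those of cluster 22, led by VGLL3 and MYO5B, held no granule marker. Values over all libraries thus set both clusters against immature neurons that came mostly from libraries 1 to 4. GRIN2A stood at 2055 CPM (95% interval 2036 to 2074) in granule-like and 677 CPM (95% interval 653 to 702) in immature neurons, 3.04-fold (95% interval 2.92 to 3.15) higher. In libraries 1 to 4 the granule-like values were 2257, 2256, 1841 and 1913 CPM and the immature values 758, 784, 388 and 372 CPM. The ranges did not overlap, and libraries 3 and 4 were lower than libraries 1 and 2 in immature neurons. GRIN2B stood at 1831 CPM (95% interval 1813 to 1849) in granule-like and 912 CPM (95% interval 884 to 941) in immature neurons, 2.01-fold (95% interval 1.94 to 2.08) higher. Its values in libraries 1 to 4 were 1908, 1870.5, 1806 and 1797 CPM in granule-like and 949, 992, 699.7 and 734 CPM in immature neurons. The GRIN2B ratio lies on the 2-fold rule, and the call is lost among nuclei with at least 1000 genes (log2 ratio 0.98), with doublets kept (0.97), without library 3 (0.96) and without library 4 (0.97).

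GRIN3A went the other way, at 28.2 CPM (95% interval 26 to 30.5) in granule-like and 80.7 CPM (95% interval 72.5 to 89.6) in immature neurons, 2.86-fold lower (95% interval 2.51 to 3.27) and lower in 4 of 4 libraries. The granule-like value includes libraries 5 to 8, which had too few immature nuclei to compare. Over libraries 1 to 4 alone the log2 ratio was -1.88 instead of -1.52, and within them it ran from -2.66 to -1.63, so that each library lay further from 0 than the value over all libraries. GRIN2D stood at 28.7 CPM in granule-like and 53.6 CPM in immature neurons, below 1 in 4 of 4 libraries at 0.535, and was called lower with libraries weighted equally, with Leiden resolution 2.0 and without library 1 (log2 ratios -1.10, -1.37 and -1.08). GRIN1 rests on 87 UMIs in immature neurons. Its ratio was 2.61-fold (95% interval 2.1 to 3.29), a log2 ratio of 1.39. That value too includes granule-like nuclei of libraries 5 to 8. Within libraries 1 to 4 the log2 ratio ran from -0.19 to 1.33 with a median of 0.68, 3 above 0 and 1 below. Without library 4, the 1 below, GRIN1 would be called (log2 ratio 1.53). Both 1.39 and 1.53 lie above the value of every library. Immature nuclei had a median of 1867 UMIs, against 6746 in granule-like nuclei, and the part of this depth in the ratios was not tested beyond the alternatives above.

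The GRIN2B to GRIN2A balance, the log2 ratio of GRIN2B to GRIN2A UMIs in a class, does not change with the scaling between classes. Its zero point reflects how well each gene is captured, so only differences between classes are read. It was -0.17 (95% interval -0.19 to -0.15) in granule-like neurons and 0.43 (95% interval 0.36 to 0.50) in immature neurons, a difference of -0.60 (95% interval -0.67 to -0.52). Within libraries 1 to 4 the difference was -0.56, -0.61, -0.88 and -1.07, so all 4 libraries had relatively less GRIN2B in granule-like neurons. The spread came mostly from the immature neurons, whose balance was 0.32, 0.34, 0.85 and 0.98, while that of granule-like neurons was -0.24, -0.27, -0.03 and -0.09.

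Set against immature neurons, pyramidal-like neurons differed by -0.21 (95% interval -0.28 to -0.14), the remaining excitatory neurons by -0.59 (95% interval -0.66 to -0.52) and all inhibitory neurons by -0.26 (95% interval -0.33 to -0.19), each below 0 in 4 of 4 libraries. The inhibitory subclasses lay on both sides. RELN interneurons differed by -0.87 (95% interval -0.95 to -0.80), below 0 in 4 of 4 libraries, and LAMP5 LHX6 interneurons by -1.89 (95% interval -1.98 to -1.80), with 1 library to check. VIP interneurons were above immature neurons by 0.61 (95% interval 0.53 to 0.69) in all and in 4 of 4 libraries, although libraries 3 and 4 gave 0.04 and 0.10 with intervals that hold 0. The unnamed LHX6 cluster differed by 1.28 (95% interval 1.19 to 1.38) but by -0.04 in library 3, and SST interneurons by 0.04 (95% interval -0.04 to 0.12) with 2 libraries on each side. The balance of mature classes spanned -1.46 in LAMP5 LHX6 to 3.20 in PVALB or chandelier interneurons, on both sides of the immature value.

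**Figure D4:**
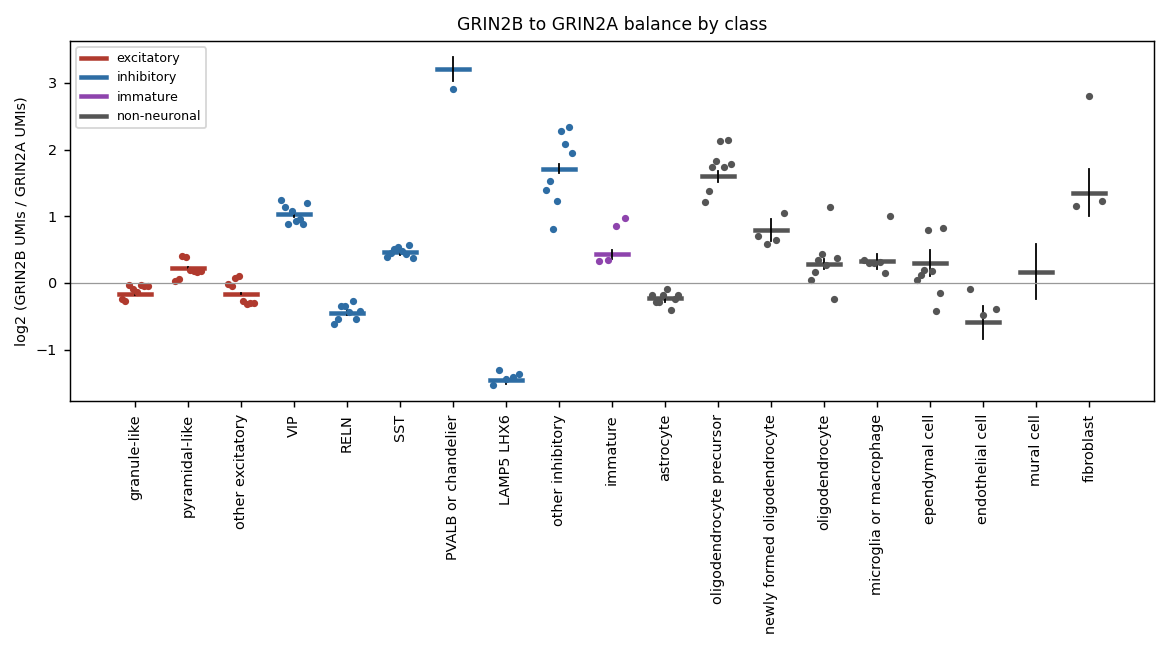
GRIN2B to GRIN2A balance (log2 ratio of UMIs) in 19 classes. Coloured bars are class values, black lines 95% intervals and points the libraries with at least 50 nuclei. Immature neurons at 0.43 lie above granule-like neurons at -0.17 and below VIP interneurons at 1.04.

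Among glia, the balance was 1.60 (95% interval 1.52 to 1.69) in oligodendrocyte precursors, 0.79 (95% interval 0.63 to 0.96) in newly formed oligodendrocytes and 0.29 (95% interval 0.20 to 0.37) in oligodendrocytes, and -0.23 (95% interval -0.29 to -0.17) in astrocytes. Neurons as a whole stood at -0.02. Precursor values ran from 1.21 to 2.15 and astrocyte values from -0.41 to -0.09 over 8 libraries. The precursor range lay above the neuronal range of -0.10 to 0.20, and the astrocyte range overlapped it.

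The 2165 immature and 3061 granule-like nuclei were also ordered by a score, the mean of the immature markers minus the mean of the granule markers. They were divided into 5 bins of equal size, from bin 1 (most immature score) to bin 5 (most mature). The score is a range and not a set of types, and whether these nuclei form a single lineage was not tested. The share of nuclei from the immature cluster was 91.4%, 65.0%, 32.9%, 13.7% and 4.11% in bins 1 to 5. Each bin sums the UMIs of both classes, so a changing mix of the classes cannot be told apart from change within a class. From bin 1 to bin 5, GRIN2A stood at 833, 1464, 1821, 1984 and 2135 CPM, and GRIN2B at 973, 1409, 1674, 1828 and 1873 CPM. The balance was 0.22, -0.06, -0.12, -0.12 and -0.19. The largest step lay between bins 1 and 2, where both subunits were already higher and GRIN2A by more. Bin 5 minus bin 1 was -0.41 (95% interval -0.50 to -0.32), and -0.38, -0.51, -0.68 and -1.04 within libraries 1 to 4, the libraries with 50 nuclei in both. GRIN3A stood at 75.5, 53.4, 45.5, 29.2 and 20 CPM, and GRIN2D at 56.9, 49.4, 35.2, 24.6 and 24.4 CPM, over the same bins. Median depth moved with the score, from 2005 UMIs per nucleus in bin 1 to 7554 in bin 5, and its part was not tested.

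**Figure D5:**
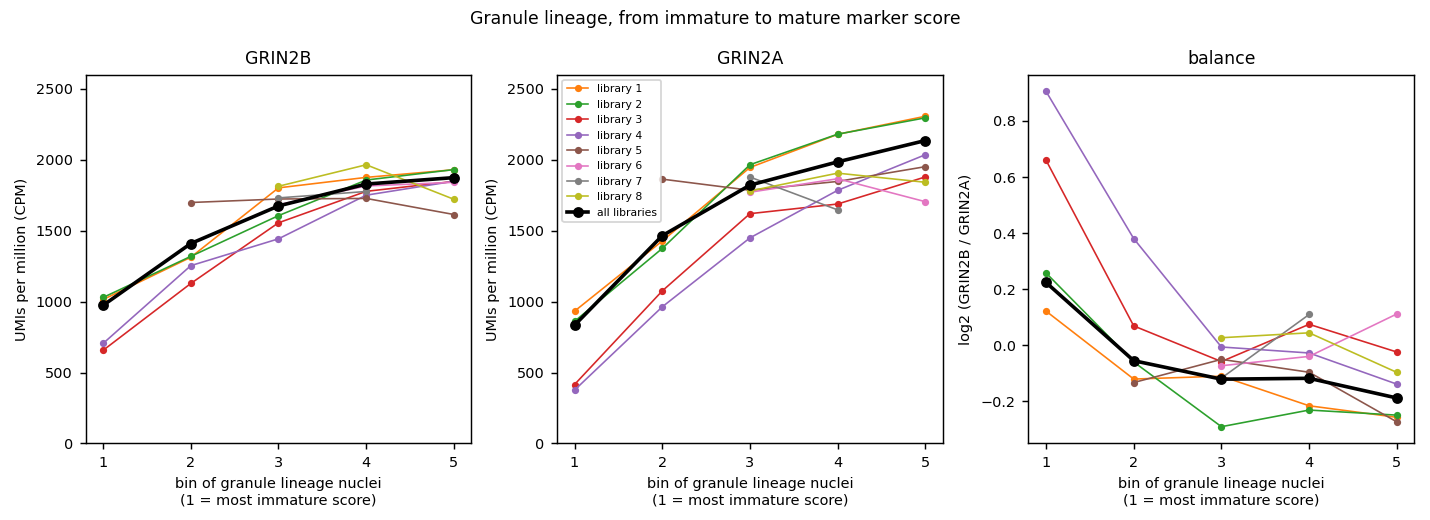
GRIN2B and GRIN2A levels (CPM) and their log2 ratio over 5 bins of the immature and granule-like nuclei, titled granule lineage, from the most immature score (1) to the most mature (5). Black is all libraries and colours are libraries with at least 50 nuclei in the bin. GRIN2A stood at 833 CPM in bin 1 and 2135 CPM in bin 5, GRIN2B at 973 and 1873 CPM.

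The proteins that hold, phosphorylate and supply the receptor were read from 6 lists with 67 genes in the matrix. In neurons over non-neuronal nuclei, 30 of 61 measured partner genes were higher (background 11.7% of all genes) and 7 lower (background 19.0%), with a median log2 ratio of 0.99, beside -0.24 over all measured genes. Of the scaffold and anchoring genes, 13 of 15 were higher and 0 lower (median 1.98). Among them DLGAP2, which links the PSD-95 scaffold to SHANK proteins, had 2059 against 139 CPM, its relative DLGAP3 64 against 5.03 CPM, and SHANK1, a core protein of the postsynaptic density, 143 against 15 CPM in neurons and non-neuronal nuclei. Of the calcium and Ras signalling genes 9 of 15 were higher, led by RASGRF1, a calcium-dependent Ras activator, at 149 against 11.5 CPM. Of the kinases and phosphatases 4 of 9 were higher and 1 lower, and of the trafficking genes 2 of 7 were higher and 1 lower (median -0.35). The genes of co-agonist and glutamate supply had 0 of 11 higher and 5 lower in neurons. The lower ones were GLUL, glutamine synthetase (9.14 against 136 CPM), SLC7A10, a carrier of D-serine (1.05 against 12.3 CPM), PHGDH and PSAT1 of serine synthesis (1.05 against 10.8 CPM and 14 against 64.3 CPM), and SLC6A9, the glycine carrier GlyT1 (8.4 against 37 CPM).

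Within non-neuronal nuclei, astrocytes had 4 of 11 supply genes higher (background 8.57%) and 2 lower (background 12.7%). SLC7A10 had 35.8 against 2.35 CPM, SLC1A4, a carrier of serine and other neutral amino acids, 105 against 13.4 CPM, and GLUL 302 against 66.9 CPM in astrocytes and other non-neuronal nuclei, whereas SLC6A9 (9.67 against 48.5 CPM) and the glutamate carrier SLC1A1 (48.2 against 276 CPM) were lower. In oligodendrocytes over precursors, 20 of 56 partner genes were lower (background 13.1%) and 5 higher, near the background of 7.98% (median -0.83, against -0.09 over all genes). All 4 AMPA receptor subunits were lower, GRIA4 at 76.2 against 647 CPM, as were DLGAP1 (374 against 2941 CPM) and CASK (133 against 1184 CPM), while SLC6A9 was higher (98.1 against 17.8 CPM).

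In excitatory over inhibitory neurons, 10 of 59 partner genes were higher (background 6.18%) and 4 lower, near the background of 6.41%. The higher ones were led by PTK2B, a calcium-dependent kinase that acts through SRC on the receptor (213 against 18.1 CPM), CAMK2A, the kinase that binds GRIN2B (417 against 99.2 CPM), and the scaffold genes DLG1 (556 against 185 CPM) and HOMER1 (596 against 199 CPM). The lower ones were NOS1, neuronal nitric oxide synthase (11 against 110.2 CPM), RASGRF2 (211 against 736 CPM), GRIA4 (421 against 1185 CPM) and GLUL (6.84 against 14.6 CPM). In granule-like over immature neurons, 20 of 60 were higher (background 8.05%) and 6 lower, below the background of 16.6% (median 0.35, against -0.27 over all genes), with 7 of 15 scaffold genes and 8 of 15 signalling genes higher. RASGRF2 had 591 against 79.3 CPM, PTK2B 349 against 62.1 CPM, CAMK2A 564 against 111 CPM and DLGAP2 1929.5 against 395 CPM in granule-like and immature neurons. The lower genes included NOS1 (5.11 against 75.2 CPM), the receptor tyrosine kinase EPHB1 (65.9 against 469 CPM) and GRIA4 (53.8 against 191 CPM). All mature neurons over immature neurons had 23 of 60 partner genes higher (background 9.65% of all genes) and 5 lower (background 15.8%). Of the scaffold genes 10 of 15 were higher, among them NETO1, an auxiliary protein of glutamate receptors (393 against 94 CPM). Trafficking genes had 1 of 7 higher and 2 lower, and supply genes 0 of 9 higher and 2 lower. These mature values include libraries 5 to 8, which had too few immature nuclei to compare.

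Granule-like over pyramidal-like neurons had 3 of 59 partner genes higher, near the background of 5.18%, RASGRF2 (591 against 113 CPM), the Rac activator TIAM1 (807 against 289 CPM) and the death-associated kinase DAPK1 (1052 against 409 CPM), and 6 lower (background 5.70%), led by PRKCA (546 against 2465 CPM) and HOMER1 (202 against 567 CPM). Of 59 measured partner genes, 2 were higher and 2 lower in LAMP5 LHX6 interneurons (backgrounds 2.69% and 4.19%) and 2 and 7 in VIP interneurons (backgrounds 3.05% and 3.77%). The counts were 3 and 6 in SST interneurons (backgrounds 2.55% and 4.60%), 2 and 7 in RELN interneurons (backgrounds 2.06% and 3.13%) and 4 and 2 in PVALB or chandelier interneurons (backgrounds 3.46% and 6.77%). Both LAMP5 LHX6 counts and the higher count in VIP interneurons are near these backgrounds. LAMP5 LHX6 interneurons, highest in GRIN2A, had 623 against 60.8 CPM of NOS1 and 2824 against 1027 CPM of GRIA4, the class and then other inhibitory neurons, and NOS1 was itself a leading gene of their cluster. SST interneurons, highest in GRIN3A, had 827 against 352 CPM of NETO1 and 446 against 1423 CPM of GRIA4. VIP interneurons had 255 against 49.1 CPM of EPHB1 and 155 against 708 CPM of GRIA3, and PVALB or chandelier interneurons 2886 against 1292 CPM of DLGAP2. All partner calls in PVALB or chandelier interneurons rest on the direction in library 8 alone, and without it none can be made.

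Over the 19 classes, the genes with levels most like each subunit were ranked by Pearson's r of log2(CPM + 1) among 12886 genes that reach 10 CPM in at least 1 class. The classes share libraries, differ in depth and separate neurons from other cells, so r is a description only. For GRIN1 they were CHD5 (0.99), SEZ6L2 (0.98), PACSIN1 (0.98), SLC12A5 (0.98) and RFLNA (0.98), and for GRIN2B SCN2A (0.98), CELF5 (0.98), RFLNA (0.97), JPH4 (0.97) and SHANK1 (0.97). For GRIN2A they were RBFOX3 (0.91), PDE1B (0.89), FXYD7 (0.88), PCSK2 (0.88) and CELF4 (0.88), a looser match, in which RBFOX3 is the NeuN gene of mature neurons. GRIN3A was nearest to MPPED1 (0.88), ASPHD1 (0.88), ACTR5 (0.88), KCNA3 (0.87) and NRSN1 (0.87), GRIN2D to SLC29A2 (0.91), HACD3 (0.91), FAM92A (0.90), EEF1AKMT4-ECE2 (0.90) and SKP2 (0.88), and GRIN2C to ENSMMUG00000057166 (0.80), SLITRK2 (0.75), WIF1 (0.73), COG2 (0.71) and RMDN2 (0.71). Between subunits, r was 0.95 for GRIN1 with GRIN2B, 0.82 for GRIN1 with GRIN2A, 0.78 for GRIN2A with GRIN2B and 0.04 for GRIN1 with GRIN2C.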

How the data were processed

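The deposited matrix gives raw UMI counts (whole numbers, with genes in rows and nuclei in columns) from Cell Ranger 3.1.0, per the file headers. CASAVA 1.8 and Seurat are also listed in the submitters' processing notes with no role, and the genome build is not given in the sources used here. The members and gene lists were chosen with earlier results of these data known, and the rule that turns marker levels into class names was settled after seeing the data. Barcodes under 500 UMIs or 300 genes were dropped, and 3576 doublets (4.18% to 7.75% per library) were removed as the highest-scoring nuclei of each library by the share of simulated doublets among 50 neighbours. The 2000 most variable genes, without subunits, partners or library correction, gave 30 principal components and Leiden clusters at resolution 1.0 (leidenalg 0.10.2). A class name needed 3 markers over 0.5 on a scale from 0 to 1 across clusters and a lead of 0.1. Of the 2 unnamed clusters, 1 had low UMI counts and 1 a high doublet score.

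Counts were summed per class and library with numpy 2.4.6. Intervals were exact Poisson (CPM), conditional binomial (ratios) and Clopper-Pearson (shares) at 95%, with the conditional odds ratio for differences in balance (scipy 1.17.1). No p-value was computed, because libraries could not be tied to samples. Besides the 6 subunits, the text names up to 5 called partner genes of largest fold per direction and comparison and, per subunit, the 5 genes of highest r. A gene that the rule names but whose values do not appear is not reported here. The calling rule was run on simulated counts drawn from the same profile in every library. That run holds none of the differences between libraries seen here and does not cover them. TMM factors came from edgeR 4.0.16. Gene symbols come from the files.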

Additional observations from a re-analysis of the deposited data

Results flagged for a closer look

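Of 64 sets of library values tested for a value far from the rest, 1 passed the 95% critical value, a threshold that chance passes in about 1 in 20 sets. It was the log2 ratio of GRIN2C in VIP interneurons over other inhibitory neurons, where library 1 gave 0.135 and the other 7 libraries -0.88 to -0.44. GRIN2C was not called in this comparison, at 18.7 CPM in VIP interneurons and 27.6 CPM in other inhibitory neurons, and rests on 153 UMIs in VIP interneurons.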

How the results depend on the processing

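Under 17 other settings (TMM scaling, libraries weighted equally, Leiden resolution 0.5 and 2.0, nuclei with at least 1000 genes, doublets kept, 5% free RNA taken off, thinning to 1000 UMIs for shares of nuclei, each library left out, and, chosen after seeing the data, only libraries with 50 immature nuclei), none of the 22 called subunit ratios changed sign where it was recomputed, 17 of 22 calls held in every setting, and 323 of 332 recomputed values of called subunits kept their call. The 5 calls that were lost somewhere were GRIN2C in neurons, GRIN2B in granule-like over immature neurons, and those of PVALB or chandelier interneurons, and 7 uncalled values passed the rule somewhere. In astrocytes 3 subunits were called instead of 1 with 5% free RNA taken off (GRIN2A and GRIN3A besides GRIN2C), and 1 to 2 with 1 library left out. In RELN interneurons 2 were called at resolution 0.5 and 1 at 2.0, against 0, and 4 partner genes at 2.0, against 9. For these astrocyte and RELN counts the share of all genes called under the same setting is not given. They show only that the calls depend on the setting. Equal weighting used only libraries with 50 nuclei of both classes. In PVALB or chandelier interneurons that was library 8 alone, where 1747 genes were called in all, against 961 as reported. Leaving out 1 library gave 0 to 3 subunits, 0 to 6 partner genes and 0 to 984 genes in all there, with each 0 coming without library 8, when no library had 50 such nuclei.

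The granule-like minus immature balance was -0.78 with equal weighting (-0.60 as reported, -0.63 to -0.56 with 1 library left out). Mature minus immature was -0.56 with equal weighting and -0.37 in libraries 1 to 4 (-0.45 as reported, -0.52 to -0.43). Bin 5 minus bin 1 of the score was -0.65 with equal weighting (-0.41 as reported, -0.44 to -0.37). For these balances equal weighting took libraries 1 to 4 alone, each with the same weight, and the other libraries were left out. Libraries 3 and 4, at -0.88 and -1.07 for granule-like minus immature, thus counted as much as libraries 1 and 2, at -0.56 and -0.61. The cause of the differences between libraries, and of the other moves, was not tested. TMM scaling shifts every log2 ratio by 0.23 in neurons over non-neuronal nuclei, 0.32 in granule-like and 0.29 in mature over immature neurons, and 0.15 in oligodendrocytes over precursors, and by under 0.1 elsewhere. No paired analysis was possible because the replicate numbers of the labels could not be tied to libraries, and the ratios within libraries compare classes only. GRIN1 and GRIN2C rest on few UMIs in immature neurons (87 and 84). The intervals cover counting error in 1 pooled sample and not differences between animals.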

Other observations

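Some subunit levels stood apart between libraries 1 to 4 and libraries 5 to 8. In libraries 1 to 8, GRIN2B in excitatory neurons was 1829.8, 1813, 1805, 1856, 1446, 1465, 1449.8 and 1474 CPM. GRIN2A in excitatory neurons was 1932, 1928, 1593, 1624, 1572, 1631, 1603 and 1619.7 CPM, with libraries 1 and 2 above the rest and libraries 3 and 4 within the range of libraries 5 to 8. In VIP interneurons, a single cluster shared by all libraries, GRIN1 was 34.8, 31.8, 48, 45.6, 70.9, 69.5, 80.6 and 77.2 CPM and GRIN2D 47.7, 80.4, 85.1, 72.7, 117, 125, 161 and 145 CPM. No label ties these libraries to the sevoflurane or the control group, so these values make no comparison between them.

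Among the 23 excitatory clusters, cluster 12, with CUX2 among its leading genes, had the highest GRIN2A at 2532 CPM. Cluster 44, of 121 nuclei with DPP4 and CDH23 among its leading genes, had the lowest GRIN2A at 572 CPM and the lowest GRIN2B at 726 CPM. Cluster 9, led by FIBCD1, had the highest GRIN2B at 2304 CPM. These clusters were drawn from the same nuclei, and the values are a description. Fibroblasts, 315 nuclei, had 415 CPM (95% interval 365 to 469.7) of GRIN2B and 10.1 CPM of GRIN1. Their GRIN2B was 27.1% of the neuronal level, below the median of 46.3% for the 10 neuron markers.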
